A study of Mus musculus with 2 samples.

Results

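The amyloid precursor family and the enzymes that cut it were followed in total RNA sequencing of the left cerebral cortex of old mice. The members, chosen by name, were 9 genes out of 55450 annotated genes and had 65 annotated transcripts. They were the precursors App, Aplp1 and Aplp2, the alpha-secretase Adam10, the beta-secretase Bace1, and the gamma-secretase genes Psen2, Ncstn, Aph1a and Psenen. The mice were male, of the B6CASTF1/J hybrid strain and 18 to 20 months old. The series holds 1 group of 2 libraries, labelled biological replicates 1 and 2, made from 300 ng of RNA each. No treatment, genotype or other age was compared, and no p-value was calculated. Both libraries carry 1 donor identifier with separate biosample identifiers, so whether they came from separate animals is not stated and their spread may be technical.

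App is a membrane protein whose cleavage by beta-secretase and then gamma-secretase releases the amyloid-beta peptide. Alpha-secretase cuts App inside that peptide instead and so prevents its formation. Aplp1 and Aplp2 are App homologs that share its extracellular domains and cytoplasmic tail but lack the amyloid-beta sequence. Gamma-secretase is a complex of a presenilin, which holds the active site, with nicastrin, APH-1 and PEN-2.

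Sequences are shown first for the parts of the transcripts that the later values turn on. They are from the GENCODE M21 transcripts, written 5′ to 3′ on the coding strand with positions on GRCm38, the assembly that the files call mm10. The stretch that names the pathway is the 42 codons of amyloid-beta, codons 597 to 638 of App-201, which lie in 2 exons between chr16:84962794-84965720 on the minus strand.
App amyloid-beta codons: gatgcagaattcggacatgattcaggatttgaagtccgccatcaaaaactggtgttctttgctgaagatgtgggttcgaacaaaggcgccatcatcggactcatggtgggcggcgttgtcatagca

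The 3 precursors share a cytoplasmic motif of 6 codons that adaptor proteins bind, and it is shown in capitals within 23 tail codons of each.
App, chr16:84955337-84955405, minus strand: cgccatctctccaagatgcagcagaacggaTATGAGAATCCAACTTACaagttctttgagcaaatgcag
Aplp1, chr7:30435296-30435364, minus strand: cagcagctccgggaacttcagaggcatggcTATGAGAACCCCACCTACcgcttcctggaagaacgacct
Aplp2, chr9:31150877-31150945, minus strand: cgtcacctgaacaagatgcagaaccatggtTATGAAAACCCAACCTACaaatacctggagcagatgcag
Over these 69 bases App was identical to Aplp2 at 51 and to Aplp1 at 39, while Aplp1 and Aplp2 shared 41. Within the 18 motif bases the pairs shared 15, 15 and 16 bases, in the same order.

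App and Aplp2, but not the annotated coding transcript of Aplp1, have a 168-base cassette exon that encodes a Kunitz-type protease inhibitor domain. Capitals mark the bases identical between these exons.
App, chr16:85043576-85043743, minus strand: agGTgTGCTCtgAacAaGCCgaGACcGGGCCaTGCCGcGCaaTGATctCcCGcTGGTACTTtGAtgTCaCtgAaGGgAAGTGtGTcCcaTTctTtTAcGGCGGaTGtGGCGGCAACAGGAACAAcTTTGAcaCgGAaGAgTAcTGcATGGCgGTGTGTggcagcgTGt
Aplp2, chr9:31167561-31167728, minus strand: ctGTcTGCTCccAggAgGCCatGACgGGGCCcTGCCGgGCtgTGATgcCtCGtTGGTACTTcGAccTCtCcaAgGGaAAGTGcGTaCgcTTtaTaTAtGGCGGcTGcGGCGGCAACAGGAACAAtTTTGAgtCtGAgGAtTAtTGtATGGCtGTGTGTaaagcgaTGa
They were identical at 114 positions, or 67.9%, and each holds 6 cysteine codons in frame.

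Replicate 1 had 22812673 expected counts and replicate 2 had 29877145, summed over annotated genes. Levels are the deposited TPM, transcript abundances that are corrected for length and can be compared between genes. Markers of neurons, excitatory and inhibitory neurons, astrocytes, oligodendrocytes, microglia, endothelium and erythroid cells were all at 1 TPM or more in both libraries, as were 2 of 3 markers of choroid plexus. All 6 striatal markers were too, with a summed level of 128.3 TPM in replicate 1 and 284.2 TPM in replicate 2. The share of each cell type in these levels was not measured, and fewer cells of a type cannot be told apart from less RNA per cell.

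All 9 members reached 1 TPM in both libraries, as did 12858 of 21938 nuclear protein-coding genes. App had 637 TPM in replicate 1 and 635 TPM in replicate 2 and ranked 35 among those 12858 genes by mean level (ENSMUSG00000022892.11, chr16:84949685-85173766, minus strand). Aplp1 had 538 TPM in replicate 1 and 574 TPM in replicate 2 and ranked 46 (ENSMUSG00000006651.8, chr7:30434982-30445535, minus strand). Aplp2 had 253.8 TPM in replicate 1 and 254.0 TPM in replicate 2 and ranked 198 (ENSMUSG00000031996.17, chr9:31149557-31211815, minus strand). The 3 precursors thus stood apart from each other in each library and were far above every secretase gene. Their summed level was 1429 TPM in replicate 1 and 1463 TPM in replicate 2, or 0.307% and 0.33% of the TPM of nuclear protein-coding genes. App supplied 44.6% and 43.4% of this sum in replicates 1 and 2, Aplp1 37.6% and 39.2%, and Aplp2 17.8% and 17.4%.

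A gene was called higher than another where the deposited credibility intervals of their TPM were apart in each library and in 1 direction. App was 2.51-fold above Aplp2, a log2 difference of 1.33 ± 0.0039 (SD, n = 2), and was called higher. Each SD given here is the spread between the libraries only, not between ways of quantifying them. Aplp1 was 2.19-fold above Aplp2, a log2 difference of 1.13 ± 0.065 (SD, n = 2), and was also called higher. Aplp1 was below App by a log2 difference of -0.20 ± 0.069 (SD, n = 2), and this smaller gap met the call too. The deposited intervals enclose the posterior mean of TPM rather than the TPM value printed above. For App they ran from 603 to 618 TPM in replicate 1 and from 609 to 622 TPM in replicate 2, below its TPM values. The TPM lay outside its own interval for 3 members in replicate 1, the precursors, and for 2 in replicate 2, App and Aplp1.

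Adam10, the main alpha-secretase of neurons, had 30.2 TPM in replicate 1 and 29.2 TPM in replicate 2 (ENSMUSG00000054693.14, chr9:70678997-70780229, plus strand). It was called higher than Adam17, another metalloprotease with alpha-secretase activity, at 4.16-fold. Adam17 itself had 8.43 TPM in replicate 1 and 6.05 TPM in replicate 2. Adam10 was 1.3-fold above Adam9, a further metalloprotease of this class, which had 22.6 and 23.1 TPM in replicates 1 and 2. That call was also made, but it rests on a small gap.

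Bace1, the aspartic protease that makes the first cut toward amyloid-beta, had 38.7 TPM in replicate 1 and 34.1 TPM in replicate 2 (ENSMUSG00000032086.12, chr9:45838580-45864399, plus strand). It was 12.7-fold above its homolog Bace2, a log2 difference of 3.66 ± 0.50 (SD, n = 2). Bace2 had 3.91 TPM in replicate 1 and 2.1 TPM in replicate 2. Adam10 was below Bace1 by a log2 difference of -0.29 ± 0.094 (SD, n = 2) and was called lower. In the second transcript table, a separate quantification of the same libraries, Adam10 over Bace1 was -0.17 on the log2 scale in replicate 1 and 0.11 in replicate 2, so their order depended on the table. App exceeded Adam10 by 21.4-fold and Bace1 by 17.5-fold.

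Among the gamma-secretase genes, Psenen, which encodes PEN-2, had 32.0 TPM in replicate 1 and 40.6 TPM in replicate 2 (ENSMUSG00000036835.7, chr7:30561863-30563627, minus strand). Aph1a, the scaffold subunit, had 29.3 and 27.7 TPM in replicates 1 and 2 (ENSMUSG00000015750.15, chr3:95893969-95898288, plus strand). Ncstn, or nicastrin, the substrate-binding subunit, had 26.8 and 24.4 TPM in replicates 1 and 2 (ENSMUSG00000003458.12, chr1:172066013-172082795, minus strand). Psen2, a presenilin, was the lowest member, with 9.87 TPM in replicate 1 and 7.9 TPM in replicate 2 (ENSMUSG00000010609.15, chr1:180227004-180263438, minus strand). These 4 genes summed to 97.96 TPM in replicate 1 and 100.6 TPM in replicate 2. Psenen was 4.08-fold above Psen2 and was called higher. Psenen over Ncstn had a log2 difference of 0.50 ± 0.34 (SD, n = 2) and was not called, although the intervals were apart in replicate 2. Ncstn and Aph1a, with a log2 difference of -0.16 ± 0.043 (SD, n = 2), were not called apart either.

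Aph1a was 2.87-fold above Aph1b, which had 9.96 TPM in replicate 1 and 9.86 TPM in replicate 2. It was 8.03-fold above Aph1c, which had 4.7 and 2.68 TPM in replicates 1 and 2, and both calls were made. Aph1b and Aph1c are near-identical rodent paralogs that share reads, so the division between them is uncertain. In all, 12 of the 14 gene pairs compared were called. By mean TPM the order was App, Aplp1, Aplp2, Bace1, Psenen, Adam10, Aph1a, Ncstn and Psen2. Of its 8 neighbouring pairs, 4 were apart in both libraries: App from Aplp1, Aplp1 from Aplp2, Aplp2 from Bace1, and Ncstn from Psen2. The 5 genes from Bace1 to Ncstn formed a run in which no neighbour differed from the next in both libraries.

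**Figure D1:**
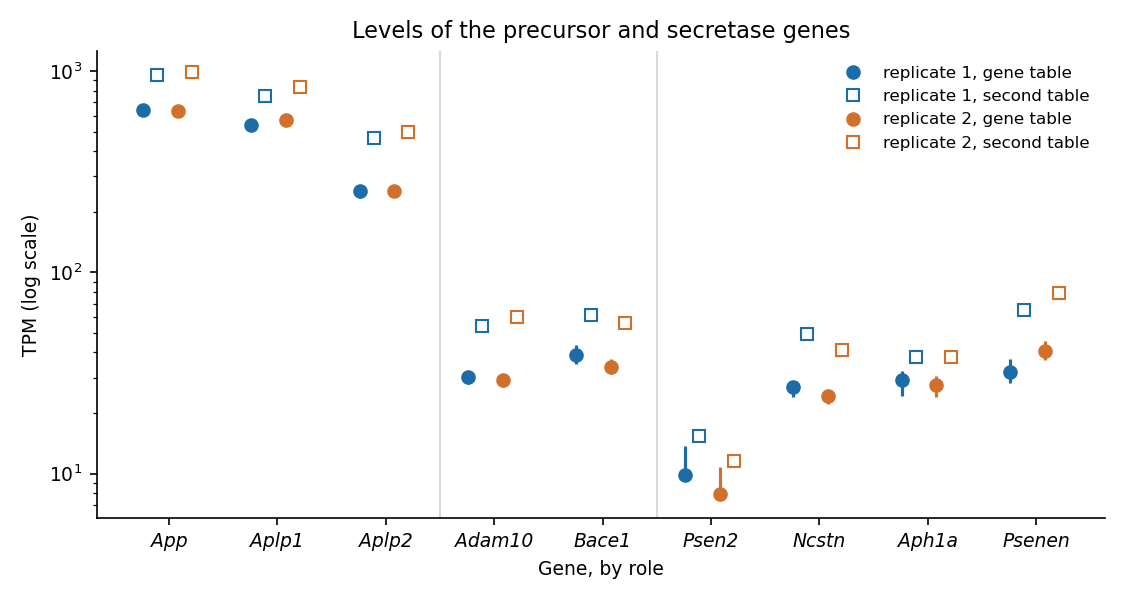
TPM of each member on a log axis in replicate 1 (blue) and replicate 2 (orange), with filled circles for the gene table, vertical lines for its deposited credibility intervals and open squares for the second transcript table. The precursors lie between 253.8 and 637 TPM in the gene table, and the secretase genes between 7.9 and 40.6 TPM.

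The second table placed every member higher, App at 956 TPM in replicate 1 and 990 TPM in replicate 2 and Psen2 at 15.4 and 11.6 TPM. Over nuclear protein-coding genes its TPM was a median of 1.54 times that of the gene table in replicate 1 and 1.59 times in replicate 2, so levels are compared only within a table. There too the precursors came first in the same order and Psen2 came last, but Psenen stood above Bace1 and Ncstn above Aph1a. Psenen also stood above Bace1 by FPKM and by the posterior mean. Folds between genes differed too. In the second table App was 2.02-fold and Aplp1 1.65-fold above Aplp2, against 2.51-fold and 2.19-fold in the gene table. Adam10 was 6.44-fold above Adam17, against 4.16-fold.

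Each precursor gene differed in how its RNA was divided among annotated transcripts. App was carried by App-201, which encodes the 695-codon form and lacks the Kunitz exon, at 91.6% of its TPM in replicate 1 and 92.0% in replicate 2. App-202, of 751 codons with the Kunitz exon, held 2.77% in replicate 1 and 3.08% in replicate 2. App-206, the 770-codon form with both upstream cassette exons, held 1.83% in replicate 1 and 1.8% in replicate 2. Aplp1 was carried by its only coding transcript, Aplp1-201 of 654 codons, at 96.7% in replicate 1 and 96.9% in replicate 2. Aplp2 had no such dominant transcript. Its leading transcript Aplp2-202, of 707 codons and without the Kunitz exon, held 29.1% in replicate 1 and 27.7% in replicate 2. Aplp2-201, of 751 codons with it, held 23.3% in replicate 1 and 19.3% in replicate 2. Aplp2-203, which also contains the exon but is annotated with an incomplete 3′ end, held 19.9% and 24.8% in replicates 1 and 2.

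Inclusion of the Kunitz exon differed between these homologs. Among transcripts that contain or skip it, inclusion in Aplp2 was 59.8% in replicate 1 and 61.4% in replicate 2. In App it was 6.77% in replicate 1 and 7.01% in replicate 2. The values of the replicates were close for each gene and did not overlap between the genes. Although App RNA was more abundant, transcripts with the exon summed to 109.6 TPM in replicate 1 and 111.9 TPM in replicate 2 for Aplp2, against 42.4 and 44.1 TPM for App. In the second table, inclusion was 66.7% and 67.1% for Aplp2 and 8.0% and 7.94% for App, in replicates 1 and 2. The Aplp2 figure depends on the incomplete Aplp2-203. The full-length Aplp2-201 alone had 59.0 TPM in replicate 1 and 49.0 TPM in replicate 2, against 73.8 and 70.2 TPM for Aplp2-202. The deposited intervals of those full-length transcripts overlapped in replicate 1 and were apart in replicate 2, where Aplp2-201 was lower.

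The other cassette exons of the precursors were measured in the same way. The 57-base exon of App, whose product resembles the MRC OX-2 antigen, was included at 3.95% in replicate 1 and 3.9% in replicate 2. The 54-base exon of App ends 16 codons before amyloid-beta and is skipped in the L-APP forms. It was included at 98.0% in replicate 1 and 98.1% in replicate 2, so nearly all App RNA carried it and few transcripts carried the OX-2 exon. A 36-base exon of Aplp2 was included at 67.8% in replicate 1 and 73.1% in replicate 2. It was included at 81.7% and 85.3% in the second table, and the incomplete Aplp2-203 ends at its last base.
App 57-base exon, chr16:85040251-85040307, minus strand: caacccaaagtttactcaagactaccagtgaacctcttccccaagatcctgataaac
App 54-base exon, chr16:84971408-84971461, minus strand: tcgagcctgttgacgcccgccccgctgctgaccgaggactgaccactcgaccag
Aplp2 36-base exon, chr9:31156190-31156225, minus strand: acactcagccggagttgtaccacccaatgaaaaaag

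Bace1 was divided between its full-length coding transcripts. Bace1-201, of 501 codons, had 13.7 TPM in replicate 1 and 14.2 TPM in replicate 2. Bace1-202, of 467 codons, had 13.6 TPM in replicate 1 and 13.9 TPM in replicate 2. Their deposited intervals overlapped in each library, so neither was called higher, and the second table put Bace1-202 first at 20.9 and 19.3 TPM against 16.1 and 17.1 TPM. Their coding sequences differ by a 102-base exon of 34 codons, codons 281 to 314 of Bace1-201. They also differ at the 3′ end, since Bace1-201 is 6058 bases long and Bace1-202 4041, so the division of reads between them does not rest on the exon alone. An aspartic protease has a pair of catalytic aspartates, and these are codons 93 and 289 of Bace1-201. The second of them lies in the 102-base exon, so Bace1-202 lacks it. The exon and the sites are shown for that reason, with the catalytic aspartate codon and the 3 codons after it in capitals.
Bace1 102-base exon, chr9:45858400-45858501, plus strand: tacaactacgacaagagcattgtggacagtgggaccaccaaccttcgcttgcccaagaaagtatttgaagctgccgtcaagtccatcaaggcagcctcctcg
Bace1 catalytic site at codon 93, in 2 exons between chr9:45839286-45852932, plus strand: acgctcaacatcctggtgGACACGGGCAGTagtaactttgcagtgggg
Bace1 catalytic site at codon 289, chr9:45858406-45858453, plus strand: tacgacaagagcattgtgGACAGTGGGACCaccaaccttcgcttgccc
Inclusion of the exon was 63.1% in replicate 1 and 58.7% in replicate 2, counting the partial transcripts Bace1-204 and Bace1-206. It was 65.8% and 65.4% in the second table. Protein was not measured.

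**Figure D2:**
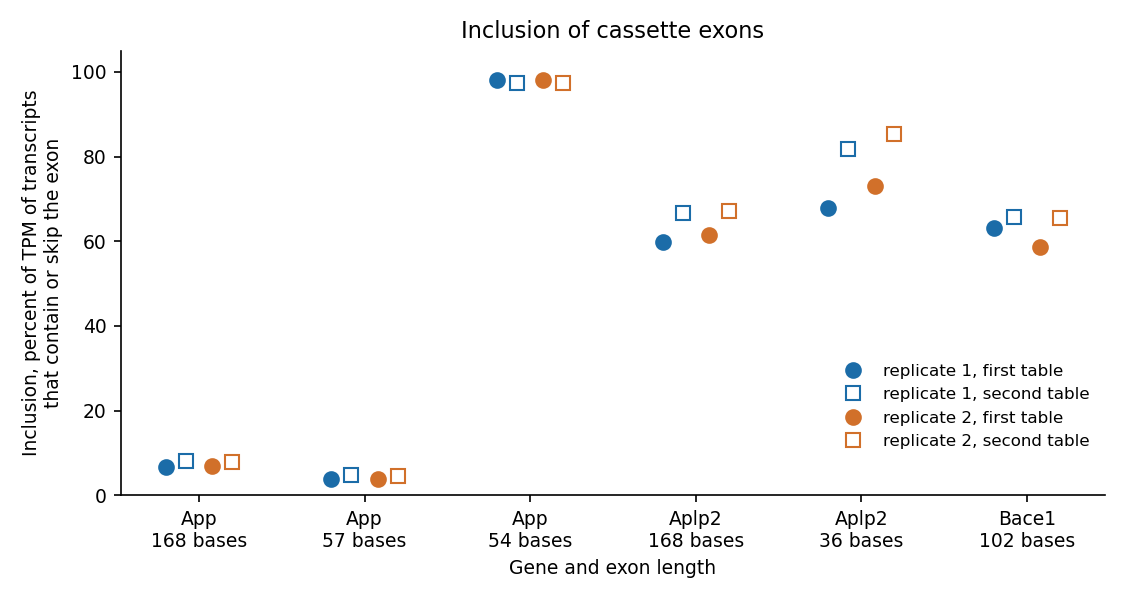
Percent inclusion of 6 cassette exons, taken over transcripts that contain or skip each, in replicate 1 (blue) and replicate 2 (orange); filled circles are the first transcript table and open squares the second. The 168-base exon lies near the bottom for App, at 6.77% and 7.01%, and above the middle for Aplp2, at 59.8% and 61.4%, in the first table.

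The remaining secretase genes had leading transcripts of differing weight. Adam10-201, of 749 codons, held 78.6% of the Adam10 TPM in replicate 1 and 86.9% in replicate 2. Adam10-202, annotated as a target of nonsense-mediated decay, held 19.7% in replicate 1 and 11.8% in replicate 2. Ncstn-201 held 72.5% in replicate 1 and 79.0% in replicate 2. These shares were lower in the second table, where Adam10-201 held 58.3% and 57.6% and Ncstn-201 51.2% and 66.6%, in replicates 1 and 2. There the short Adam10-203, of 144 codons, held 17.0% in replicate 1 and 24.55% in replicate 2, against 0% in the first table. Aph1a was divided between a long form and a short form that share 245 codons and differ only at the end. The long Aph1a-202, of 265 codons, held 59.9% in replicate 1 and 62.4% in replicate 2, and the short Aph1a-201, of 247 codons, held 22.2% and 20.96%. Their intervals were apart in both libraries, with the long form higher.

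Psenen-201 held 69.2% of the Psenen TPM in replicate 1 and 68.1% in replicate 2, and Psenen-203 held 26.5% and 20.3%. These transcripts have the same coding sequence, so which of them led, which differed in the second table, does not bear on the protein encoded. Psen2 was the least settled. Its coding Psen2-205 held 47.3% in replicate 1 and 68.3% in replicate 2, and the processed transcript Psen2-208 held 27.9% and 6.94%. The TPM of Psen2-205 lay above its deposited interval in each library, which ran from 0.0013 to 3.76 TPM in replicate 1. The division of reads among the Psen2 transcripts was thus imprecise, and the whole gene had 225 counts in replicate 1 and 277 in replicate 2. The leading transcript was the same in both libraries for 9 of 9 members. It was also the same in the second table for 5 of them: App, Aplp1, Adam10, Ncstn and Aph1a.

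In the first transcript table part of the TPM of each member was assigned to annotated transcripts that are not protein-coding. These were retained introns, decay targets and processed transcripts. Whether the reads assigned to them came from such RNA was not tested. In the first transcript table this noncoding share was smallest in App, at 1.91% of its TPM in replicate 1 and 1.22% in replicate 2, and in Aplp1, at 3.36% and 3.08%. In Aplp2 it was 27.7% in replicate 1 and 28.3% in replicate 2, of which the retained-intron transcript Aplp2-207 alone held 14.3% and 20.1%. Psen2 had the largest share in replicate 1, 52.7%, against 27.7% in replicate 2. Among the other secretase genes, Ncstn had 27.5% in replicate 1 and 21% in replicate 2, Adam10 21.4% and 13.1%, Bace1 14.8% and 9.9%, Aph1a 10.5% and 8.73%, and Psenen 4.28% and 9.11%. The second table divided the reads differently. There Aplp1 had the smallest share in replicate 2, 0.889%, and 1.2% in replicate 1, against 3.42% in replicate 1 and 1.79% in replicate 2 for App. Psenen had 0% in replicate 1 and 2.46% in replicate 2. Ncstn had 48.8% and 33.4% there in replicates 1 and 2, Aph1a 20.5% and 12.8%, and Aplp2 40.0% and 42.7%. Bace1 had 13.8% in replicate 1 and 24.8% in replicate 2, the opposite direction from the first table. In the first table the share was higher in replicate 1 for 7 of 9 members. It was higher in replicate 1 for 73.0% of 8334 nuclear protein-coding genes of at least 5 TPM with such a transcript, a share near that of the members. In the second table it was higher in replicate 1 for 6 of 9 members and for 69.6% of 8333 genes. The median shares over the 8334 genes of the first table were 18.7% in replicate 1 and 14.6% in replicate 2. Over the 8333 genes of the second table they were 21.8% in replicate 1 and 17.4% in replicate 2.

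**Figure D3:**
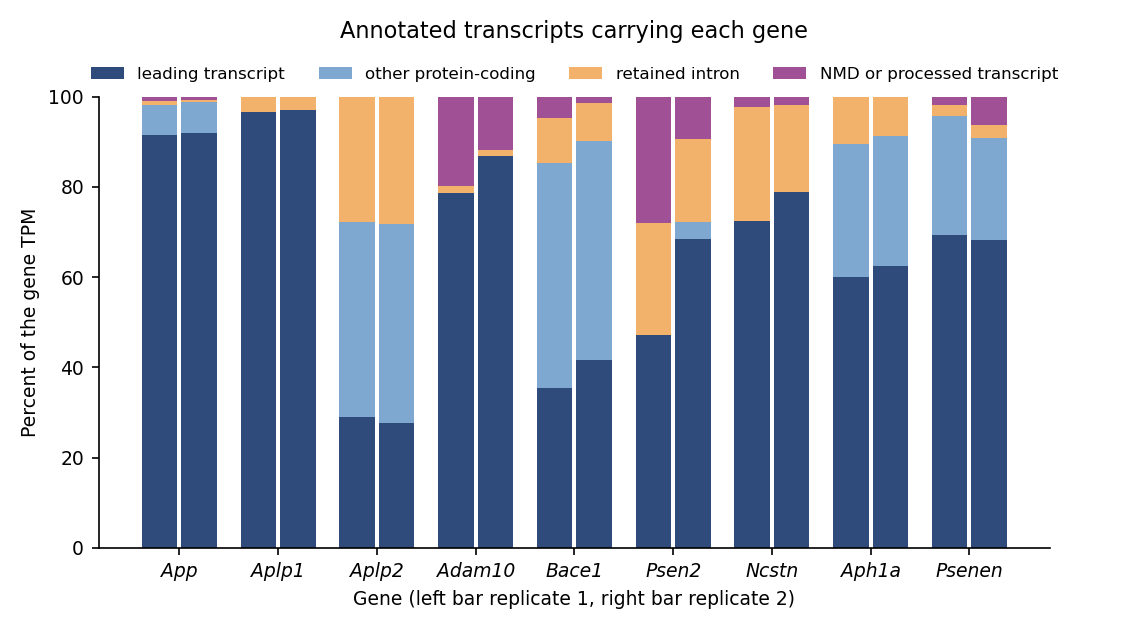
Percent of each member's TPM held by its leading transcript, other coding transcripts, retained-intron transcripts and other noncoding transcripts, with replicate 1 as the left bar and replicate 2 as the right bar. App and Aplp1 are carried by 1 transcript, while the leading transcript of Aplp2 holds 29.1% and 27.7%.

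The libraries were then compared with each other. Log2 ratios, replicate 1 over replicate 2, were calculated from rounded expected counts after scaling with the trimmed mean of M values (TMM). A gene was called where the exact 95% counting interval of the ratio excluded 0, which covers counting error only and says nothing of a condition. By this rule 6 of 9 members were lower in replicate 1 and 0 were higher. Over all 17943 annotated genes whose mean count was at least 10, 36.3% were called in either direction, 17.6% lower and 18.7% higher in replicate 1. Among the 11641 nuclear protein-coding genes whose mean count was at least 100, 40.2% were called, with 23.6% lower and 16.6% higher in replicate 1. The median log2 ratio was -0.10 over the members, -0.03 over nuclear protein-coding genes and -0.00095 over all genes.

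Aplp1, with 17589 counts in replicate 1 and 26121 in replicate 2, was lower at -0.20 (interval -0.23 to -0.18). App, with 29710 and 41378 counts in replicates 1 and 2, was lower at -0.11 (-0.13 to -0.09). Aplp2 was lower at -0.10 (-0.14 to -0.06). In scaled counts all 3 precursors were thus lower in replicate 1 by small amounts with TMM, a direction that Aplp2 did not keep with spike-in scaling. Adam10 was lower at -0.12 (-0.20 to -0.03), and Bace1 at -0.08 (-0.16 to -0.0065). Psenen had the largest ratio in size, -0.39 (-0.61 to -0.18), from 280 counts in replicate 1 and 475 in replicate 2. Of the 11641 coding genes, 244 had a ratio at or below that of Psenen. Psen2, Ncstn and Aph1a were not called, at 0.07 (-0.19 to 0.33), -0.05 (-0.17 to 0.08) and 0.0016 (-0.14 to 0.14). The TPM did not go the same way for every called member. It was lower in replicate 1 for Aplp1, Aplp2 and Psenen. It was higher in replicate 1 for App (637 against 635), Adam10 (30.2 against 29.2) and Bace1 (38.7 against 34.1).

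These calls depended on the scaling. Scaling on the spike-in RNAs moved the median ratio of all genes by 0.10. It left 2 members called, Aplp1 and Psenen, both lower in replicate 1. The share of all genes called with this scaling was not calculated. Under it Aplp2 stood at 0.0041 and Bace1 at 0.0168, with the opposite sign, and App at -0.0087 and Adam10 at -0.01 were not called. Ncstn, called under neither scaling, also changed sign, to 0.05. Set against the median of all genes, the ratios of the members were the same under either of these scalings, since a scaling moves every gene alike. Only Aplp1 and Psenen kept a call under all 5 other settings run for the members. Several marker lists moved the same way with TMM. All 6 striatal markers were lower in replicate 1, with a median log2 ratio of -1.40, and Drd2 had 2.09 TPM there against 10.7 TPM in replicate 2. Of the inhibitory neuron markers 3 of 3 were lower (median -0.20), of the oligodendrocyte markers 3 of 4 (-0.18), of the microglia markers 3 of 4 (-0.17) and of the astrocyte markers 2 of 4 (-0.09), with 0 higher in each. Of the general neuron markers 2 of 4 were lower (median -0.03) and of the choroid plexus markers 1 of 3 (0.07), again with 0 higher in each. Excitatory neuron and endothelial markers had 1 higher and 1 lower each, and no erythroid marker was called. The part of these cell types in the members' ratios was not tested.

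**Figure D4:**
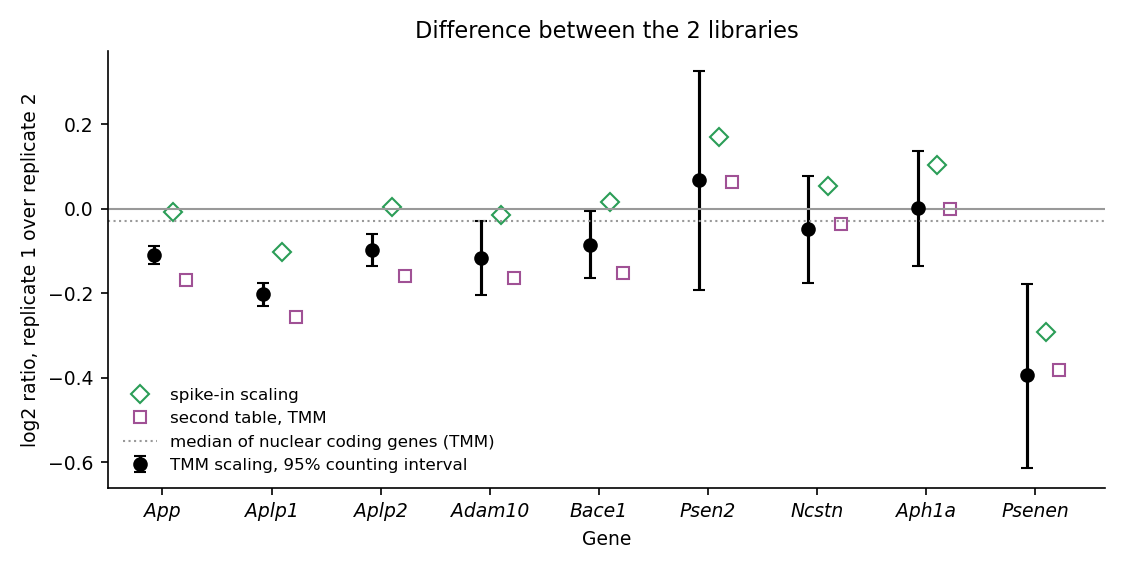
Log2 ratio of replicate 1 over replicate 2 for each member, with TMM scaling and its 95% counting interval (black), spike-in scaling (green diamonds) and the second table (purple squares); the dotted line is the median of nuclear protein-coding genes after TMM. Aplp1 at -0.20 and Psenen at -0.39 lie lowest, and the spike-in values of Aplp2, Bace1, Psen2, Ncstn and Aph1a lie above 0.

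Some members overlap genes on the opposite strand, and the sources used here do not say whether counting used strand. Bace1 shares 975 of its 6348 exonic bases with Rnf214, which had 35.9 TPM in replicate 1 and 32.9 TPM in replicate 2, and 951 with the unconfirmed gene Gm49338, at 10.8 and 9.49 TPM. Psenen shares 119 of its 1275 exonic bases with U2af1l4, at 30.8 and 27.7 TPM in replicates 1 and 2. Ncstn shares 195 exonic bases with Copa, at 67.0 and 63.1 TPM, and Aph1a 445 with Car14, at 4.85 and 3.35 TPM. The levels of Bace1, Psenen, Ncstn and Aph1a are uncertain to that extent. App shares 113 exonic bases with an antisense gene, Gm49227, that had 1 count in replicate 1 and 0 in replicate 2. Aplp1, Aplp2 and Adam10 overlap no annotated gene.

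The wider pathway was taken as 63 further genes in 10 lists, of which 61 reached 1 TPM in both libraries. Between the libraries 13 were higher and 21 lower in replicate 1 with TMM, but 26 were higher and 7 lower with spike-in scaling, so no common direction is read from them. With TMM 34 of the 63 were called, beside 36.3% of all genes whose mean count was at least 10. That share was 40.2% for nuclear protein-coding genes whose mean count was at least 100. Neither share was calculated with spike-in scaling. The counts given for each list are those with TMM. Adam17, Adam9, Bace2, Aph1b and Aph1c ranged from 3.91 to 22.6 TPM in replicate 1 and from 2.1 to 23.1 TPM in replicate 2, below Adam10 and Bace1 in each. Of them Adam9 alone was called between the libraries, lower in replicate 1 at -0.15 (-0.25 to -0.05) with TMM; with spike-in scaling it stood at -0.05 and was not called.

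The TspanC8 tetraspanins guide Adam10 out of the endoplasmic reticulum, and 5 of 6 were detected. In scaled counts Tspan5 was lower in replicate 1 at -0.09 with TMM, against 0.02 with spike-in scaling. Tspan10, with 40 counts in replicate 1 and 22 in replicate 2, was higher in replicate 1. It had 1.7 TPM in replicate 1 and 0.79 TPM in replicate 2, so it missed the detection rule in replicate 2 only. Tspan5 led them with 112.5 TPM in replicate 1 and 110.3 TPM in replicate 2, followed by Tspan17 with 45.0 and 41.0 TPM. Tspan5 was thus well above Adam10 itself. Tspan15 had the largest ratio among those with a mean count of 100 or more, -0.19 (-0.52 to 0.14), and was not called. Of 5 metalloprotease inhibitors 4 were detected and 2 were lower in replicate 1, none higher. Timp2 had 99.5 TPM in replicate 1 and 112.3 TPM in replicate 2, with a called ratio of -0.23, and Timp3, an inhibitor of Adam10 and Adam17, had 29.3 and 29.1 TPM.

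The 9 secretase modulators included some of the highest genes of the pathway, with 1 higher and 6 lower in replicate 1. Rtn3, a reticulon that binds Bace1, had 361 TPM in replicate 1 and 369 TPM in replicate 2. Itm2b, which binds App and limits its cleavage, had 347 and 359 TPM in replicates 1 and 2. Both were below App and above Aplp2 in each library. Gsap, a gamma-secretase activating protein, was low at 2.82 and 2.18 TPM and was not called, at 0.27 (-0.08 to 0.61).

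The list of adaptors of the precursor tails and of partners of those adaptors had 9 genes, 2 of them higher and 2 lower in replicate 1. Apbb1, also called Fe65, which binds at the tail motif printed above, had 202.4 TPM in replicate 1 and 208.5 TPM in replicate 2. Apba2, a neuronal Mint protein, had 109.8 and 97.9 TPM in replicates 1 and 2. Apba3 had the largest ratio, 0.23 (0.02 to 0.44), higher in replicate 1. Among 4 genes of peptide degradation 1 was higher and 1 lower. Ece1, an endothelin-converting enzyme, had 43.2 and 35.3 TPM in replicates 1 and 2. Ide, the insulin-degrading enzyme, had 27.0 and 24.98 TPM, and Mme, or neprilysin, had 4.52 and 5.19 TPM. Mme was the lowest of them and was lower in replicate 1, at -0.46 (-0.71 to -0.21).

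The list of other secretase substrates had 16 genes, 6 of them higher and 5 lower in replicate 1. Prnp, the prion protein, had 368 TPM in replicate 1 and 389 TPM in replicate 2, and Cx3cl1, the membrane-bound chemokine fractalkine, had 254.9 and 245.1 TPM. Both are cut by Adam10, and neither reached the level of App or Aplp1. Nrg3, a neuregulin cut by Bace1, had the largest ratio, 0.28 (0.18 to 0.37), higher in replicate 1. Among 9 trafficking genes 2 were higher and 3 lower. Bin1, a membrane-bending adaptor of endocytosis, had 125.8 TPM in replicate 1 and 109.6 TPM in replicate 2. Vps29 of the retromer, a sorting complex that returns App from endosomes, had 77.4 and 77.9 TPM, and its partner Vps35 was lower in replicate 1 at -0.29 (-0.36 to -0.22).

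**Figure D5:**
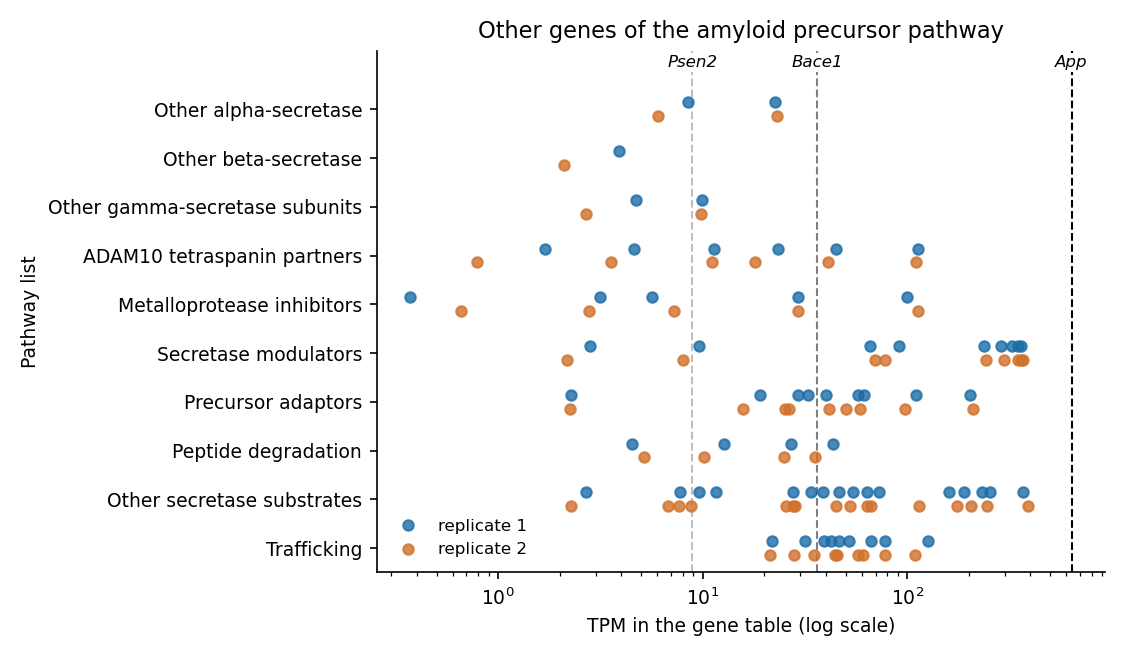
TPM in the gene table, on a log axis, of the 63 other pathway genes by list, in replicate 1 (blue, upper) and replicate 2 (orange, lower); dashed lines are the mean TPM of Psen2, Bace1 and App. No gene of these lists reaches App, and the closest are Prnp, Rtn3 and Itm2b.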

How the data were processed

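Total RNA was measured in 2 libraries of 1 group. Per the file headers, the deposited gene table and the first of 2 transcript tables have RSEM columns, and the second has kallisto columns. The deposited file lists name assembly mm10 and annotation GENCODE M21. Not given in the sources used here are the aligner, tool versions, settings and use of strand. The deposited expected counts and estimated counts are reads divided among features and are not normalized. The deposited TPM and FPKM values are normalized for length and depth, and the authors' percent column gives each transcript's share of its gene's TPM. The sources used here do not give the level of the deposited credibility intervals. Reads were assigned on a reference annotation, and the effect of CAST variants was not measured.

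Expected counts were rounded, 0.5 was added, and ratios were scaled with TMM (edgeR 4.0.16, R 4.3.3) over genes whose mean count was at least 10. Intervals are exact (Clopper-Pearson) at 95%, cover counting error only and treat each counted read as independent. Without molecular identifiers a read is not an independent molecule, so the intervals may be too narrow. They also leave out the uncertainty of dividing reads among features. Totals were 22812673 and 29877145 expected counts. Rows that match no annotated gene stayed out of totals. An exon counted as a cassette where an annotated protein-coding transcript spanned and skipped it, and 15 exons in 7 genes met this rule. Alternatives were DESeq2 1.42.0 size factors, spike-in scaling, total counts, no filter, the second table, FPKM and the posterior mean. Tables were handled with pandas 2.3.3, NumPy 2.4.6 and SciPy 1.17.1 in Python 3.11.15, and figures drawn with matplotlib 3.10.9.

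The members, lists and pairs were chosen with earlier results of these data known. The genes named were the members, both genes of each pair and, in each list, the 2 with the highest mean TPM and the gene with the largest ratio in size at a mean count of 100 or more. Overlapping genes, Tspan10 and the marker Drd2 are named outside that rule. 1 gene of the lists is not reported here.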

Additional observations from a re-analysis of the deposited data

How the results depend on the processing

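With spike-in scaling 2 members differed between the libraries, against 6 with TMM. The ratios of Aplp2 (0.0041), Bace1 (0.0168) and Ncstn (0.05), the last called under neither scaling, changed sign. The cause of the difference between scalings was not tested. With total counts Bace1 was not called, at -0.06. The leading transcript was shared by both libraries for 9 members and also by the second quantification for 5. The Kunitz exon of App held 6.79% of the gene's TPM as a mean of both libraries, 7.78% in the second table, and 7.97% there among transcripts that contain or skip it. That of Aplp2 held 43.6%, 39.2% in the second table, 60.6% among protein-coding transcripts, 60.6% among transcripts that contain or skip it, and 66.9% among those in the second table; the denominator changes by construction. Leaving out each library in turn gave 9 of 9 members detected, 4 to 5 neighbours apart, 12 to 13 pairs called, 9 leading transcripts, 9 to 10 exons included at 50% or more, and 6.65% to 6.94% (App) and 43.2% to 44.1% (Aplp2) for the Kunitz exons. It gives no value for the ratio between libraries. Where a table holds no intervals (FPKM and the second table), genes were called apart at 1.5-fold in both libraries. By that rule 3 pairs lost their call in FPKM with their log2 differences as before. They were Aplp1 over App (-0.20), Adam10 over Adam9 (0.38) and Adam10 over Bace1 (-0.29). In the second table Aplp1 over App (-0.29) and Adam10 over Bace1 (-0.03) lost it. Of the other values, 46, all exon shares, moved by more than the spread of the libraries, 8 lost a call (those of these pairs included) and 1 gained one. A further 2, Aplp2 and Bace1 with spike-in scaling, reversed in sign and were also no longer called. The remaining 150 had none of these labels, but ratios were labelled by their calls and not by their size. Some of those ratios thus shifted by more than the spread or changed sign. App over Aplp2 went from 1.33 to 1.02 in the second table, and Ncstn over Aph1a, not called in either, from -0.16 to 0.25. No paired analysis was possible because there is 1 group. Depth limits the low genes most: Psen2 had 225 and 277 counts.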
